A study of Mus musculus with 8 samples.

Results

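Ttr and 5 further genes that carry, activate or answer to thyroid hormone were examined in the cortex of mice that express cytoplasmic TDP-43. The 6 genes (Ttr, Dio2, Thra, Thrb, Hr and Klf9) were chosen by their symbols in the deposited results table and joined to the table of normalized counts by transcript identifier. All 6 were found and all 6 passed the read threshold, out of 10588 genes that passed it and 28662 transcripts in the whole table. The genes were grouped with the difference between bigenic and nontransgenic mice already known. Their differences between the groups are therefore given as a description, with the standard error and with no test.

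Bigenic mice carried a tetracycline transactivator under the Camk2a promoter (Camk2a-tTa), which is active mainly in forebrain excitatory neurons, together with a tetracycline-responsive human TDP-43 whose nuclear localization signal was mutated (ΔNLS-hTDP-43). The transgene was held off by dietary doxycycline up to an age of 28 days, and the cortex of the right side was collected 10 days after doxycycline had been withdrawn. Control mice were nontransgenic offspring of parents heterozygous for the transgenes, kept on the same diet schedule. There were 4 mice in each group, all C57BL/6, with the same number of males in each. Poly(A)+ RNA was sequenced, and the study asked how the transcriptome changes when TDP-43 is in the cytoplasm. Only neurons with an active Camk2a promoter are meant to express the transgene, whereas the RNA came from all cells of the tissue, so fewer cells of a type and less RNA per cell cannot be told apart in any value below.

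Thyroid hormone circulates mostly as thyroxine, bound to carrier proteins such as transthyretin, the product of Ttr. In the brain, transporters carry it across membranes, the deiodinase encoded by Dio2 turns it into the active hormone T3 in glial cells, and T3 acts through the nuclear receptors encoded by Thra and Thrb. Hr and Klf9 are classical genes induced by T3 in brain, and transthyretin in the brain is made chiefly by the epithelium of the choroid plexus, which secretes it into the cerebrospinal fluid.

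The deposited values are normalized counts, which are reads per transcript divided by a factor for each mouse and rounded. Column totals lay between 20.1 and 21.98 M. About 10.6 to 31.9 M reads on genes stood behind each bigenic mouse and about 20.2 to 28.97 M behind each nontransgenic mouse, as estimated from the spacing of the whole numbers. Mice are numbered 1 to 4 within each group in the order of the deposited columns, which carry no GEO replicate number. Bigenic mouse 2 had the fewest reads, and it was either the highest or the lowest bigenic mouse for each of the 6 genes. Results that rest on it are given without it as well. The transcript without a gene symbol that stands for the transgene, uc999vvf.1, had 29375 to 41550 normalized counts in the bigenic mice and 5 to 80 in the nontransgenic mice. Markers of cortical excitatory neurons were abundant in both groups, with Slc17a7, the vesicular glutamate transporter, at 11805 to 17831 normalized counts in the bigenic and 12605 to 13786 in the nontransgenic mice.

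Upstream sequence from RefSeq (GRCm38.p6) was available for 3 of the 6 genes, Dio2, Thrb and Klf9, in 4 promoters. The 250 bases before each start were searched on both strands for AGGTCA, the half-site bound by thyroid hormone and related nuclear receptors, and for TGACGTCA, the cAMP response element. The Dio2 and the first Thrb promoter are shown because they are the 2 in which a motif was found, marked by capitals. The motifs do not overlap each other here.

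Dio2, chr12:90739039-90739288, minus strand: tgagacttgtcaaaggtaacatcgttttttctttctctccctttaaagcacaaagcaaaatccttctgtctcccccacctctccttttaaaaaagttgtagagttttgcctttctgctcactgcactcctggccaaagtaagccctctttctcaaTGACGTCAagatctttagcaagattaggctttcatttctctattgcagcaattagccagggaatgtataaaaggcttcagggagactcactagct

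Thrb, chr14:17660710-17660959, plus strand: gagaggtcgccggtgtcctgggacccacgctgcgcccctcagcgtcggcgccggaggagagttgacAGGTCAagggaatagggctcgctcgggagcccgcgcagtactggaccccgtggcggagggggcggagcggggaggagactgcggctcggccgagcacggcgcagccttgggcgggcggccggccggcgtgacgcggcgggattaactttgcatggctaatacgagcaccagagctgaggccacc

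The cAMP response element began 95 bases before the Dio2 start, and the half-site began 184 bases before the first Thrb start. TGACGTCA was found in 1.55% of 32851 promoters of the same length and AGGTCA in 14.02%. Neither motif was found in the second Thrb promoter or in that of Klf9. A match describes the letters and is not a measured binding site.

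Of the 6 genes, Ttr and Hr were higher in every bigenic mouse than in any nontransgenic mouse, Dio2 was lower in every bigenic mouse, and the values of Thra, Thrb and Klf9 overlapped between the groups. The groups thus did not overlap for 3 of the 6 genes, against 39.0% of all genes. This count comes from the comparison in which the genes were chosen.

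**Figure D1:**
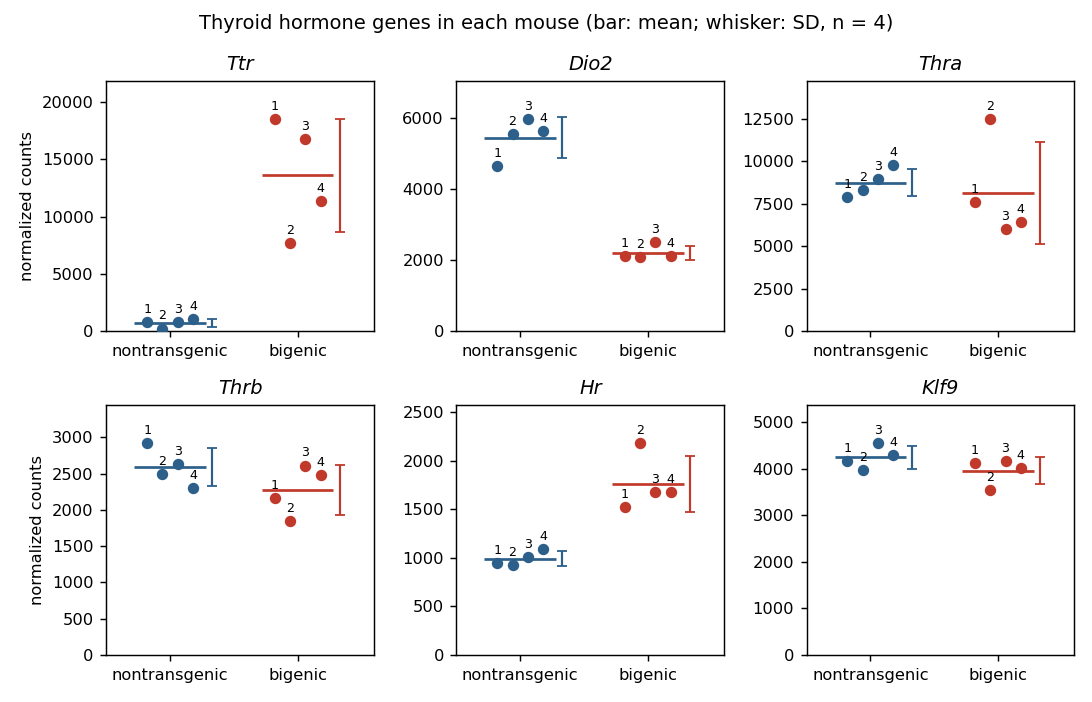
Normalized counts of the 6 genes in each mouse, with nontransgenic mice in blue and bigenic mice in red, numbered 1 to 4 in column order. Horizontal bars are group means and whiskers are SD (n = 4), and each axis starts at 0. Ttr, Dio2 and Hr separate the groups, while bigenic mouse 2 lies at one end of the bigenic values in all 6 panels.

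Ttr (uc008eet.2, mm9 chromosome 18, 20823751 to 20832825, plus strand) had 18520, 7741, 16795 and 11356 normalized counts in bigenic mice 1 to 4, whereas nontransgenic mice 1 to 4 had 801, 236, 835 and 1023. The lowest bigenic mouse thus lay far above the highest nontransgenic mouse. The ratio of the group means was 18.8 and the log2(fold change) was 4.34 (standard error 0.44). Both groups were spread widely, with an SD of 36.5% of the mean in the bigenic and 46.9% in the nontransgenic mice, and nontransgenic mouse 2 lay below the other 3. With each mouse left out in turn the log2(fold change) lay between 3.87 and 4.58. Ttr shares 11 of its 1219 exon bases with Gm16090 on the opposite strand in GENCODE.

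Because the choroid plexus is the main source of transthyretin in brain, a list of 32 of its marker genes without Ttr was examined beside Ttr. Clic6 and F5 were known to be higher when the list was written. Only 11 of the 32 passed the read threshold, and 21 were not tested here, among them Folr1, Kcnj13, Otx2, Aqp1 and Sostdc1. Limma called 5 of the 11 higher, where 20.5% of all genes were called higher, and 1 lower, where 15.4% were called lower. The median log2(fold change) of the 11 was 0.35, against 0.03 for all genes tested. Kl, which encodes Klotho, had 428, 292, 412 and 288 normalized counts in bigenic mice 1 to 4 and 78, 55, 66 and 99 in the nontransgenic mice (log2(fold change) 2.25, limma adjusted p-value = 7.87e-05). F5, coagulation factor V, had 251, 178, 200 and 173 against 36, 27, 22 and 35 (log2(fold change) 2.71, limma adjusted p-value = 5.08e-05). Clic6, a chloride intracellular channel family member, had 260, 174, 207 and 125 against 29, 45, 23 and 46 (2.40, limma adjusted p-value = 0.000403). Prlr, the prolactin receptor, had 313, 174, 202 and 135 against 48, 47, 38 and 78 (1.93, limma adjusted p-value = 0.00108). These 4 genes passed the threshold through the bigenic mice alone, so a difference upward was fixed in part by the threshold. Their p-values, the count of 5 called higher and the median of the 11 are therefore no evidence of a rise in the markers as a set. With 10 RPM asked of every mouse, 2 markers were called instead of 6. Apart from these 4 genes, only Cab39l was called higher (0.38), and Sulf1 was called lower, with a log2(fold change) of -0.49.

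The other 5 markers were not called. The log2(fold change) was 0.34 for Enpp2, which encodes autotaxin, -0.17 for Slc13a4, -0.13 for Car12, -0.29 for Igfbp2 and 0.35 for Ace, with limma adjusted p-values of 0.128, 0.503, 0.678, 0.217 and 0.124. Without bigenic mouse 2, Enpp2 was called higher (0.52, limma adjusted p-value = 0.000322), as was Ace (0.44, limma adjusted p-value = 0.0398), and Igfbp2 was called lower (-0.44, limma adjusted p-value = 0.0176). Summed over the 11 markers, the bigenic mice lay between 9261 and 14003 normalized counts and the nontransgenic mice between 8990 and 9934, where Enpp2 makes up most of each sum. Mfrp, below the threshold, had 201, 188, 158 and 132 against 100, 93, 116 and 96, and it shares 1398 exon bases with C1qtnf5 on the same strand. Only 1 of 10 ependymal markers passed the threshold. Of 6 meningeal markers that passed, 0 were called higher and 1, Fmod, was called lower, against 20.5% and 15.4% of all genes tested. Fmod was not called in 4 of the 8 fits with a mouse left out (limma adjusted p-value of up to 0.0917), and without bigenic mouse 2 Ptgds was called lower as well (-0.45, limma adjusted p-value = 0.0203).

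The log2(fold change) of Ttr was larger than that of each of the 11 markers. The 4 markers summed below passed the threshold through the bigenic mice alone, so their sum and the ratio to it are a description only. The sum of Clic6, F5, Kl and Prlr was 1252, 818, 1021 and 721 normalized counts in bigenic mice 1 to 4 and 191, 174, 149 and 258 in the nontransgenic mice. There were 14.8, 9.46, 16.4 and 15.8 counts of Ttr for each count of that sum in bigenic mice 1 to 4, and 4.19, 1.36, 5.60 and 3.97 in the controls, without overlap. Bigenic mice 1 and 3, the highest for Ttr, were also the highest for the sum. The part that the amount of choroid plexus in each dissection has in the Ttr values was not tested.

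**Figure D2:**
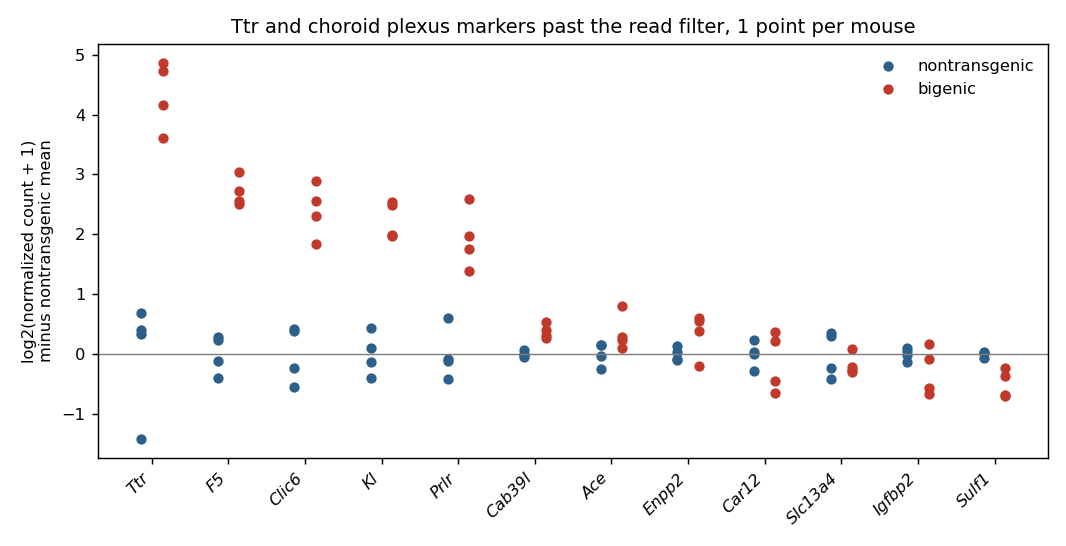
Ttr and the 11 choroid plexus markers past the read threshold, as log2(normalized count + 1) minus the mean of the nontransgenic mice, with 1 point per mouse (blue nontransgenic, red bigenic). Ttr, F5, Clic6, Kl and Prlr lie 1 or more log2 units higher in every bigenic mouse, and the other 7 markers lie within 1 unit of 0.

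Dio2 (uc007okf.1, mm9 chromosome 12, 91962994 to 91976878, minus strand), the deiodinase that makes T3 from thyroxine, had 2126, 2093, 2504 and 2128 normalized counts in bigenic mice 1 to 4 and 4655, 5566, 5975 and 5639 in the nontransgenic mice. All bigenic mice lay below all nontransgenic mice, and 3 of them lay close together, from 2093 to 2128. The group mean was 0.405 times that of the nontransgenic mice and the log2(fold change) was -1.30 (standard error 0.10). Left out in turn, the mice gave values between -1.37 and -1.25. Astrocytes are the main cells that express Dio2 in cortex. Over the 10 astrocyte markers on the list the median log2(fold change) was -0.24, with 5 called lower and 0 called higher, against 15.4% of all genes called lower. With the columns scaled to equal totals or by quantiles, 3 were called lower, and without bigenic mouse 2, 6 were. Slc1a2 and Glul were not called in 6 and 5 of the 8 fits with a mouse left out. Summed, they lay between 137945 and 164271 normalized counts in the bigenic and between 173634 and 189388 in the nontransgenic mice, where Slc1a2 makes up most. Gfap, a marker of reactive astrocytes, had a log2(fold change) of 0.04, and Aqp4, the astrocytic water channel, of -0.63 (limma adjusted p-values 0.863 and 0.00698). The log2(fold change) of Dio2 was further from 0 than that of each of the 10 markers. The part of these cells in the Dio2 values was not tested. Dio2 shares 100 of its 5813 exon bases with Gm16738 on the opposite strand.

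Thra (uc007lhe.1, mm9 chromosome 11, 98601952 to 98630320, plus strand), the main T3 receptor gene of brain, had 7614, 12460, 5980 and 6401 normalized counts in bigenic mice 1 to 4 and 7915, 8303, 8917 and 9739 in the nontransgenic mice. Bigenic mouse 2 lay above every nontransgenic mouse and the other 3 bigenic mice lay below every nontransgenic mouse. The log2(fold change) was -0.16 (standard error 0.20) with all 8 mice and -0.39 without bigenic mouse 2. The last exons of Thra share 263 bases with those of Nr1d1 on the opposite strand, 5.70% of the exon bases of Thra. Nr1d1, which encodes the clock repressor Rev-erbα, had 842, 869, 897 and 968 against 1388, 1296, 1200 and 1252 normalized counts (log2(fold change) -0.52, limma adjusted p-value = 0.000975), so bigenic mouse 2 did not stand out for it. Splice variants of Thra that do not bind T3 were not separated, since the gene has a single row.

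Thrb (uc007sho.2, mm9 chromosome 14, 18493474 to 18870602, plus strand), the second T3 receptor gene, had 2171, 1847, 2613 and 2486 normalized counts in bigenic mice 1 to 4 and 2925, 2496, 2636 and 2298 in the nontransgenic mice. The groups overlapped, with 2 bigenic mice below the lowest nontransgenic mouse. The log2(fold change) was -0.19 (standard error 0.12) and -0.09 without bigenic mouse 2. There were 3.51, 6.75, 2.29 and 2.57 normalized counts of Thra for each of Thrb in bigenic mice 1 to 4, and 2.71, 3.33, 3.38 and 4.24 in the controls, and these ranges overlap.

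Hr (uc007uoj.1, mm9 chromosome 14, 70952019 to 70973355, plus strand), which encodes the corepressor hairless, had 1526, 2186, 1675 and 1677 normalized counts in bigenic mice 1 to 4 and 950, 922, 1014 and 1089 in the nontransgenic mice. Every bigenic mouse lay above every nontransgenic mouse. The ratio of means was 1.78 and the log2(fold change) was 0.82 (standard error 0.11), and it was 0.71 without bigenic mouse 2, the highest. Klf9 (uc008gzz.1, mm9 chromosome 19, 23215716 to 23241401, plus strand), a transcription factor induced by T3 and by glucocorticoids, had 4116, 3538, 4158 and 4017 against 4157, 3963, 4552 and 4302. Its groups overlapped and its log2(fold change) was -0.10 (standard error 0.08). The 2 classical T3 response genes therefore did not move together, one being higher in all bigenic mice and the other differing by little more than its standard error.

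Levels of different genes were compared per kilobase of exon. The length used was that of all merged exons of the gene in GENCODE, which can exceed the length of the counted transcript. In the nontransgenic mice the order was Thra (1715 to 2111 normalized counts per kb), Klf9 (1215 to 1395), Dio2 (801 to 1028), Ttr (194 to 839), Thrb (347 to 442) and Hr (133 to 157). The ranges of Dio2 and Ttr overlapped, as did those of Ttr and Thrb, and the other neighbours were apart. In the bigenic mice Ttr came first (6350 to 15193), followed by Thra (1296 to 2700), Klf9 (1084 to 1274), Dio2 (360 to 431), Thrb (279 to 395) and Hr (221 to 316). Here Dio2 overlapped with Thrb and Thrb with Hr. By group mean, Ttr therefore stood behind Thra, Klf9 and Dio2 in nontransgenic cortex and ahead of all 5 in bigenic cortex. Dio2 lay at the level of Thrb in the latter.

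**Figure D3:**
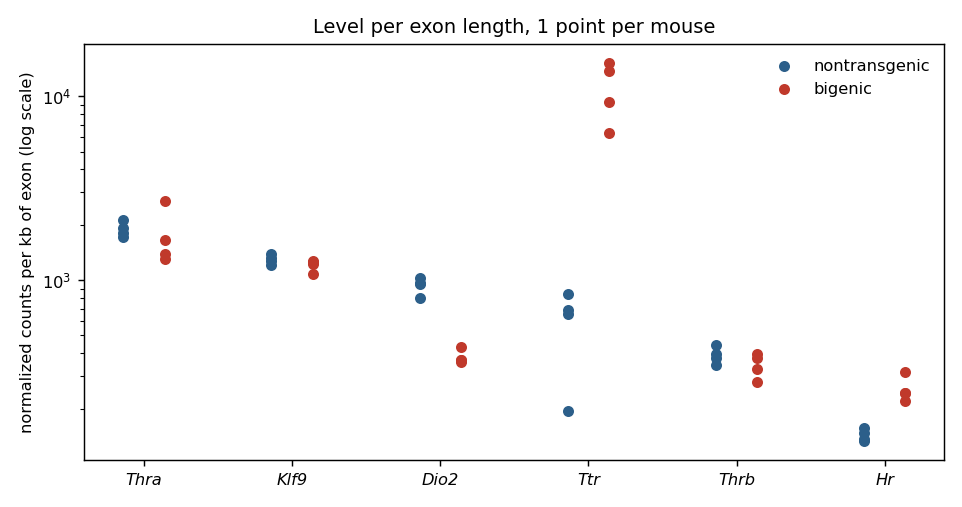
Normalized counts per kilobase of GENCODE exon for the 6 genes, on a log axis, with 1 point per mouse (blue nontransgenic, red bigenic), ordered by the nontransgenic mean. Ttr lies below Thra and Klf9 in nontransgenic mice and is the highest of the 6 genes in bigenic mice, at 6350 to 15193 per kb.

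The 6 genes also differed in how they varied among mice of the same group. Likeness was measured as Pearson's r of log2(normalized count + 1) after each group mean was subtracted, over the 8 mice, as a description. Thra and Thrb ran opposite to each other (r = -0.91, and -0.90 without bigenic mouse 2), Thra and Hr ran together (0.83, but 0.16 without bigenic mouse 2) and Ttr and Klf9 ran together (0.77, and 0.77 without it). Dio2 had values between -0.21 and 0.48 with the other 5, and between -0.19 and 0.47 without bigenic mouse 2. Some pairs changed sign without that mouse. Among them, r went from -0.50 to 0.53 for Hr and Klf9, from -0.63 to 0.34 for Thra and Klf9, and from -0.14 to 0.52 for Ttr and Hr. Among all 10588 genes, those most like Ttr in this measure were AK037070 (0.971), Grb14 (0.951) and Stim2 (0.930). Those most like Dio2 were Rsad1 (0.965), Slc25a37 (0.951) and Fubp3 (0.925). Thra was most like Ddrgk1, 2610015P09Rik and Rrbp1, each with an r of 0.997, and Hr most like Thap11 (0.997), C630004H02Rik (0.997) and Cdk9 (0.996), in all of which bigenic mouse 2 was the highest bigenic mouse. Thrb was most like Sema3e (0.995), B3galt2 (0.993) and 5730494N06Rik (0.992), and Klf9 most like Rpp30 (0.955), Snrpd1 (0.954) and Tspan15 (0.953). In these genes, and in those most like Ttr, bigenic mouse 2 was the lowest bigenic mouse. The part that this mouse has in these likenesses was not tested. The 8 points of each gene share the depth and scaling of the same 8 libraries.

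The other genes of the pathway were taken from a list of 54 carriers, transporters, enzymes, receptor partners, cofactors and T3-regulated genes, of which 41 passed the read threshold. Limma called 15 of the 41 (36.6%), 7 higher and 8 lower in the bigenic mice, against 35.9% of all genes tested. This share is near that of all genes and is no result about the pathway as a whole. The median log2(fold change) of the 41 was 0.03, as it was for all genes.

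**Figure D4:**
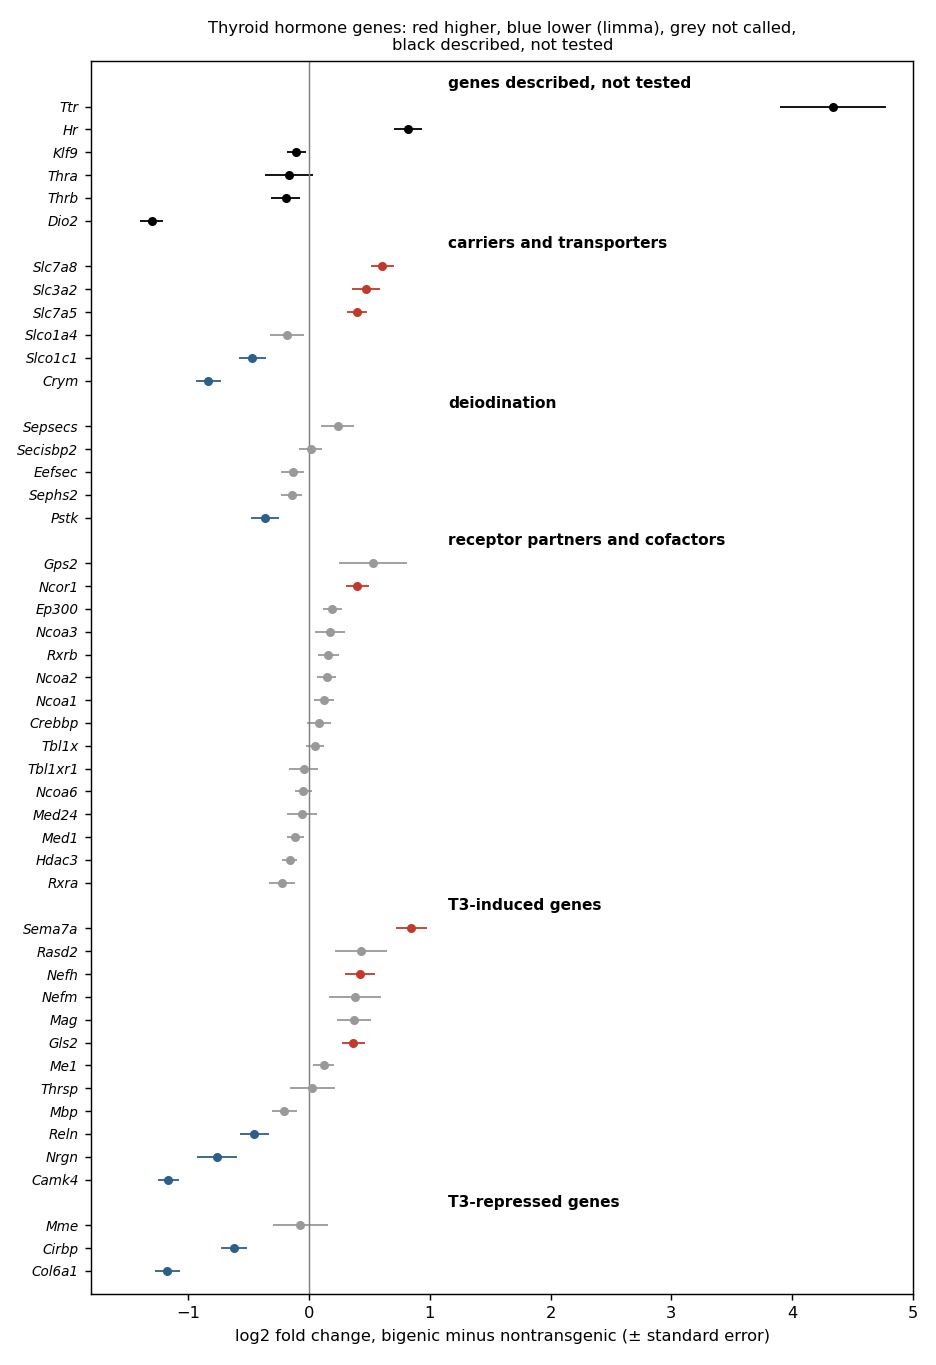
Log2(fold change) of bigenic against nontransgenic mice with its standard error for the 6 genes (black, not tested) and for 41 other genes of the pathway by role. Red genes were called higher and blue genes lower by limma at an adjusted p-value below 0.05, and grey genes were not called. Ttr lies at 4.34 and Dio2 at -1.30, while the called genes of the other groups lie between -1.17 and 0.85.

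Of 6 carriers and transporters that passed, 2 were called lower and 3 higher, against 15.4% and 20.5% of all genes tested. Slco1c1, the thyroxine transporter of the blood-brain barrier and astrocytes, had 694, 904, 820 and 783 normalized counts in bigenic mice 1 to 4 and 1033, 1287, 1141 and 970 in the nontransgenic mice (log2(fold change) -0.47, standard error 0.11, limma adjusted p-value = 0.00995). The groups did not overlap. Crym, which encodes the cytosolic T3-binding protein μ-crystallin, fell from 848, 871, 848 and 957 to 504, 583, 462 and 441 (-0.83, standard error 0.10, limma adjusted p-value = 0.000303). For Slco1a4, a broad organic anion transporter of the barrier, the log2(fold change) was -0.18 (limma adjusted p-value = 0.34). Of 9 endothelial markers 1 was called, against 35.9% of all genes tested. This was Flt1, which was lower (-0.26) but was not called in 6 of the 8 fits with a mouse left out (limma adjusted p-value of up to 0.122).

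The amino acid transporters that also carry thyroid hormone were higher. Slc7a8, which encodes the light chain LAT2, had 1540, 2074, 1818 and 1912 normalized counts in bigenic mice 1 to 4 and 1246, 1162, 1182 and 1195 in the nontransgenic mice (log2(fold change) 0.61, standard error 0.09, limma adjusted p-value = 0.00114). Slc7a5, the light chain LAT1, had 1307, 1156, 1109 and 1270 against 849, 928, 919 and 970 (0.40, standard error 0.08, limma adjusted p-value = 0.00477). Their shared heavy chain Slc3a2 had 2347, 3131, 2104 and 2255 against 1725, 1748, 1668 and 1868 (0.47, standard error 0.12, limma adjusted p-value = 0.0122). For these 3 genes the groups did not overlap. The plasma carriers Serpina7 and Alb and the transporter Slc16a10 did not pass the threshold and were not analysed here.

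Among the enzymes, Dio1 and Dio3, the latter of which inactivates T3, did not pass the threshold and were not analysed here. The deiodinases contain selenocysteine, and 5 genes of selenocysteine synthesis and insertion passed. Limma called 1 of the 5, against 35.9% of all genes tested. Pstk, the kinase that prepares the selenocysteine tRNA, was called lower (log2(fold change) -0.36, limma adjusted p-value = 0.0334), but in 6 of the 8 fits with a mouse left out it was not called, with an adjusted p-value of up to 0.109 by limma. Secisbp2, which encodes the protein that reads the insertion signal, was at 0.01 (limma adjusted p-value = 0.913), Sephs2 at -0.14 (0.234), Eefsec at -0.13 (0.307) and Sepsecs at 0.24 (0.198).

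Of 15 receptor partners and cofactors that passed, 1 was called, against 35.9% of all genes tested. This was Ncor1, a corepressor that holds unliganded receptors silent. It had 7531, 9825, 7581 and 7718 normalized counts in bigenic mice 1 to 4 and 6374, 5883, 5998 and 6345 in the nontransgenic mice (log2(fold change) 0.40, limma adjusted p-value = 0.00949). Without bigenic mouse 2 this value was 0.31, and Ncor1 stayed called. Hdac3, the deacetylase of the same complex, was at -0.16 (limma adjusted p-value = 0.0775, and 0.0312 without bigenic mouse 2). Gps2 had 525 normalized counts in bigenic mouse 2 and 189 to 221 in the other bigenic mice. The retinoid X receptors Rxra (-0.22, limma adjusted p-value = 0.126) and Rxrb (0.16, 0.174), which pair with the T3 receptors, were not called, and neither was a coactivator. The coactivators Ncoa1, Ncoa2, Ncoa3, Ncoa6, Crebbp, Ep300, Med1 and Med24 had log2(fold changes) between -0.11 and 0.20, and Ncoa2 was called higher without bigenic mouse 2 (0.20, limma adjusted p-value = 0.0251).

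Genes reported as raised by T3 went in both directions. Of 15 listed, 12 passed, 3 were called higher and 3 lower, against 20.5% and 15.4% of all genes tested. The largest difference was that of Camk4, a calcium/calmodulin-dependent kinase, with 5111, 4508, 5639 and 5245 normalized counts in bigenic mice 1 to 4 and 11140, 11085, 12514 and 11044 in the nontransgenic mice (log2(fold change) -1.16, standard error 0.08, limma adjusted p-value = 2.46e-05). Nrgn, which encodes the postsynaptic calmodulin-binding protein neurogranin, had 3962, 6967, 4084 and 4442 against 7596, 7802, 9101 and 7596 (-0.76, limma adjusted p-value = 0.00636), and -0.94 without bigenic mouse 2. Reln, the secreted protein that guides cortical layering, was lower, at -0.45 (limma adjusted p-value = 0.0157, and 0.0521 without nontransgenic mouse 1). In contrast, Sema7a, a membrane-anchored semaphorin, had 3708, 5710, 4001 and 4342 against 2276, 2421, 2628 and 2406 (0.85, standard error 0.13, limma adjusted p-value = 0.000865). Gls2, a glutaminase, rose by 0.37 (limma adjusted p-value = 0.0137), and Nefh, the heavy neurofilament, by 0.42 (limma adjusted p-value = 0.0255). Nefh was not called without nontransgenic mouse 1, 2 or 3, at limma adjusted p-values of 0.0543, 0.0774 and 0.0638.

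Mbp and Mag, myelin genes whose onset depends on thyroid hormone in development, were not called. The log2(fold change) was -0.20 for Mbp (limma adjusted p-value = 0.148) and 0.37 for Mag (0.0626, and 0.025 without bigenic mouse 3). Rasd2 (0.43), Nefm (0.38), Me1 (0.12) and Thrsp (0.03) were not called either. Nefm had 16472 normalized counts in bigenic mouse 2, where the other bigenic mice had 7397 to 8219, and its log2(fold change) without that mouse was 0.12.

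Genes reported as lowered by T3 were lower or not called. Of 7 listed, 3 passed and 2 were called, both lower, against 15.4% of all genes called lower. Col6a1, a collagen chain, had 508, 434, 553 and 522 normalized counts in bigenic mice 1 to 4 and 999, 1200, 1076 and 1267 in the nontransgenic mice (log2(fold change) -1.17, standard error 0.11, limma adjusted p-value = 6.17e-05). Cirbp, a cold-inducible RNA-binding protein, had 534, 436, 507 and 424 against 697, 655, 850 and 717 (-0.62, standard error 0.11, limma adjusted p-value = 0.00243). Mme, which encodes neprilysin, was at -0.07 (limma adjusted p-value = 0.83).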

How the data were processed

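The authors sequenced poly(A)+ RNA of 4 bigenic and 4 nontransgenic right cortices. Per the methods and the submitters' processing notes, adaptors were trimmed with cutadapt, reads were mapped to mm9 with Bowtie 0.12.7, and uniquely mapping reads were counted per exon with bedtools and summed. Use of strand in the counting is not given in the sources used here, so genes with overlapping exons may share reads. The authors deposited these values as a signal per transcript, normalized and rounded counts with one column per mouse. The second deposited table, with the authors' mean signal, log2 fold changes and p-values from DESeq2, was used for symbols only.

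A gene was kept (10588 in all) where any mouse reached 10 RPM, taken relative to its column's sum. Values were transformed as log2(value + 1), which understates the change of low genes, and compared with limma 3.58.1 (eBayes with a trend) in R 4.3.3, adjusted after Benjamini-Hochberg over all genes kept, with a threshold of 0.05. The 6 genes and all lists were chosen with earlier results of these data known. The test was checked on simulated data. Named genes are the 6, the pathway genes past the threshold, the called genes with the largest change in the marker lists, the genes whose exons overlap those of the 6, and for each of the 6 the 3 genes most like it. Mfrp was named after its values were seen. Some genes of the lists are not reported here and are left out of the lists' counts. Positions, exon lengths and overlaps come from GENCODE for the same build (NCBIM37, mm9). Promoters come from RefSeq on GRCm38.p6, and no coordinate was converted. The value of a single read in each column was estimated from integers that are missing or doubled. At most 6.20 normalized counts correspond to 3 reads, for counting error only. Nothing in the sources ties a column to a replicate number, and p-values measure the spread between these mice. Alternatives were pseudocounts of 10 and 0.1, no filter, a filter in every mouse, equal totals, quantile normalization, a threshold of 0.01 and leaving out each mouse. Python 3.11.15, pandas 2.3.3 and numpy 2.4.6 were used.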

Additional observations from a re-analysis of the deposited data

Results flagged for a closer look

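In groups of 4, 1 mouse stood far from the other 3 in 12 of the 112 groups examined (56 genes, by Dixon's test at the 95% level). For normal values and independent groups, about 1 in 20 would be flagged. These groups share the same 8 libraries and were tested on untransformed counts, so the 12 cannot be judged against that rate. In 6 of the 12 the mouse that stood apart was bigenic mouse 2, the shallowest library. It was highest for Ncor1 (9825 normalized counts, the other bigenic mice at 7531 to 7718), Gps2 (525, against 189 to 221), Ncoa3 (1987, against 1376 to 1387), Nrgn (6967, against 3962 to 4442), Nefm (16472, against 7397 to 8219) and Nefh (3030, against 2060 to 2145). Bigenic mouse 3 was highest for Dio2 (2504, against 2093 to 2128). Among the nontransgenic mice, mouse 3 was highest for Nrgn (9101, against 7596 to 7802), Camk4 (12514, against 11044 to 11140) and Hsd11b1 (315, against 199 to 214), mouse 4 for Rxra (846, against 661 to 682) and mouse 1 for Ncoa1 (5817, against 4952 to 5040). The part that library depth has in these values was not tested.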

How the results depend on the processing

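No paired analysis was possible because the columns carry no replicate number from the labels. Limma called 3796 genes in all and 2654 to 4817 when single mice were left out, 15 of the other thyroid hormone genes (12 to 17) and 6 choroid plexus markers (6 to 9). At an adjusted p-value below 0.01 the first 2 counts were 2057 and 10, and with 10 RPM asked of every mouse 2 choroid plexus markers were called, since fewer of them were then tested. Leaving out each mouse gave log2(fold changes) of 3.87 to 4.58 for Ttr, -1.37 to -1.25 for Dio2, -0.39 to -0.04 for Thra, -0.26 to -0.09 for Thrb, 0.71 to 0.88 for Hr and -0.13 to -0.05 for Klf9. None of these 6 changed sign under any alternative run. Of 24 called genes in the thyroid hormone, choroid plexus, glucocorticoid and retinoid lists, 18 could be tested under each alternative with the threshold at 0.05, and 12 of these kept their call and direction in all. The other 6 (Clic6, F5, Kl, Prlr, Rara and Hsd11b1) were not tested with 10 RPM asked of every mouse and kept their call elsewhere. None of the 24 changed direction where tested. The sign turned for some genes that were not called. Within the thyroid hormone lists, these were Secisbp2 (-0.01) and Tbl1x (-0.0045) with quantile normalization. With a mouse left out they were Secisbp2 (-0.0509 to 0.0588), Tbl1xr1 (-0.0965 to 0.0855), Med24 (-0.178 to 0.0277), Thrsp (-0.14 to 0.14) and Mme (-0.28 to 0.14). Outside the thyroid hormone lists the sign turned for several genes with a mouse left out. They included Car12 (-0.30 to 0.05), Gfap (-0.12 to 0.21), Fkbp5 (-0.25 to 0.06), Ddit4 (-0.06 to 0.31) and Dusp1 (-0.20 to 0.40). Hdac3, Ep300, Ncoa2 and Mag, not called with all mice, were each called under at least 1 alternative. With all transcripts tested, Slc3a2, Pstk, Nrgn, Reln, Nefh and Errfi1 were not called (limma adjusted p-values of 0.0539 to 0.118).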

Other observations

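Klf9 is also a target of the glucocorticoid receptor, and 12 glucocorticoid receptor and response genes were examined beside it. All 12 passed the threshold, 1 was called higher and 1 lower, with 20.5% and 15.4% of all genes called in these directions. Hsd11b1, the enzyme that regenerates active glucocorticoid, had 124, 108, 135 and 166 normalized counts in bigenic mice 1 to 4 and 214, 202, 315 and 199 in the nontransgenic mice (log2(fold change) -0.79, limma adjusted p-value = 0.00984). It passed the threshold through the nontransgenic mice alone, so a difference downward was fixed in part by the threshold. Errfi1 was called higher (0.41, limma adjusted p-value = 0.0311), but not in 6 of the 8 fits with a mouse left out, where the limma adjusted p-value reached 0.0909. The classical targets Fkbp5, Sgk1, Per1 and Tsc22d3 were not called, at log2(fold changes) of -0.10, 0.27, 0.67 and 0.25 (limma adjusted p-values 0.706, 0.376, 0.126 and 0.344). They varied widely among the nontransgenic mice, from 657 to 1790 normalized counts for Per1. For each of these genes nontransgenic mouse 4 was the highest of its group, at 1119, 1778, 1790 and 2028 normalized counts in the same order. Sgk1, Per1 and Tsc22d3 were each called higher in 1 of the 8 fits with a mouse left out.

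Transthyretin also carries retinol-binding protein, and 3 of 8 genes of retinoid handling passed the threshold. Rara, a retinoic acid receptor, had 245, 443, 311 and 290 normalized counts in bigenic mice 1 to 4 and was called higher (log2(fold change) 1.04, standard error 0.20, limma adjusted p-value = 0.00319), with 127 to 196 in the nontransgenic mice. It passed the threshold through the bigenic mice alone, so this direction was fixed in part by the threshold. Rbp4, the plasma retinol carrier, was at -0.33 (limma adjusted p-value = 0.0583) and Rarb at -0.66 (0.129), and neither was called. Without bigenic mouse 2, Rbp4 was called lower (-0.37, limma adjusted p-value = 0.0278).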
